A study of Mus musculus with 16 samples.

Results

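Proteins made for secretion enter the endoplasmic reticulum (ER) through a set of membrane machines. The signal recognition particle (SRP) binds the signal sequence as it leaves the ribosome and docks at its receptor, the Sec61 channel passes the chain across or into the membrane, signal peptidase cuts the signal sequence away, and oligosaccharyltransferase (OST) moves a preassembled glycan from a lipid carrier onto asparagine residues. Goblet cells, which fill and release mucin granules in the colon, are among the most active secretory cells of the intestine.

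The 32 genes described here encode these machines and were chosen by name for their known roles. They were 4 Sec61 channel subunits, Sec62 and Sec63, 4 subunits of the translocon-associated protein (TRAP) complex, 2 TRAM proteins, 5 SRP proteins with the beta subunit of the SRP receptor, 5 signal peptidase subunits and 9 OST subunits. All 32 were found by symbol among the 45513 genes in the files, and all 32 passed the filter on low counts, which left 15841 genes to test.

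Colon epithelium came from 8 mice, each giving 1 tdTom+ and 1 tdTom- library, so that the 16 libraries formed 8 pairs. Every mouse, in both groups, was an Atoh1(WT)CreERT2; Rosa26tdTom/+ animal on a C57BL/6 background, male or female and 8 to 16 weeks old. The study's methods give the Atoh1 allele as homozygous in all experiments. Each mouse had received tamoxifen at 1 mg a day for 3 days. That dose is from the sample labels and the study's treatment methods, whereas its RNA sequencing methods describe a single 3 mg injection. The time from the last dose to collection was therefore not certain. CreERT2 followed the Atoh1 coding sequence in its own locus, so that Cre was made where Atoh1 was, and the red reporter from Rosa26 marked Atoh1-expressing cells together with any progeny they had left. EpCAM-positive live cells were sorted by that reporter, and there was no untreated or Cre-negative group among these libraries.

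Read counts per library ran from 16482530 to 24218367 in tdTom+ and from 18318172 to 45791503 in tdTom-. The deepest library, tdTom- of mouse 4, stood apart from the next at 20668605, and leaving that mouse out kept the number of these genes called higher at 29. All 8 goblet markers examined were called higher in tdTom+ and all 8 absorptive markers lower, beside 25.5% of all genes tested each way. The goblet markers included Atoh1, whose own locus carried the Cre behind the sort. The share of counts from mitochondrial genes was 2.23% to 6.92% in tdTom+ and 3.74% to 9.97% in tdTom-, lower in tdTom+ in 8 of 8 mice, and its part in the results was not tested. Levels below are in CPM, counts scaled to a library of 1000000 after TMM correction, and an edgeR quasi-likelihood test with Benjamini-Hochberg adjustment over all genes, read at 0.01, gave the calls.

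Of the 32 genes, 29 were higher in tdTom+, 2 were lower (Sec61a2 and Tram2) and 1, Stt3b, did not pass the test. Over all genes tested, 25.5% were called higher and 25.5% lower, 51.0% in either direction. The median log2 fold change of the 32 genes was 1.10, and that of all genes tested was 0.00 (0.004). A log2 fold change over 1 with a passing test was found for 19 of the 32, against 7.59% of all genes tested. In bulk libraries such a difference can come from more cells of a type or from a larger share of the RNA within cells, and these cannot be told apart.

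Libraries did not mix on most of these genes. For 28 of the 32, every tdTom+ value lay above every tdTom- value, which held for 15.2% of all genes tested; the opposite arrangement, found for 15.3% of all genes, was seen for 0 of the 32. The 4 genes with overlapping groups were Sec61a2, Tram2, Srp68 and Stt3b. The shares over all genes were not matched for level. By mean CPM, Tram2 lay above 20.4% of genes tested, Sec61a2 above 43.9% and the others above 63.8% to 98.8%. Each of the 29 genes called higher was higher in tdTom+ of the same animal in 8 of 8 mice. Summed over the 32 genes, the level was 6750 to 7870 CPM in tdTom+ (median 7170) and 3220 to 3800 CPM in tdTom- (median 3510). The median log2 ratio of the 32 genes within a mouse ran from 0.98 in mouse 6 to 1.26 in mouse 1.

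**Figure D1:**
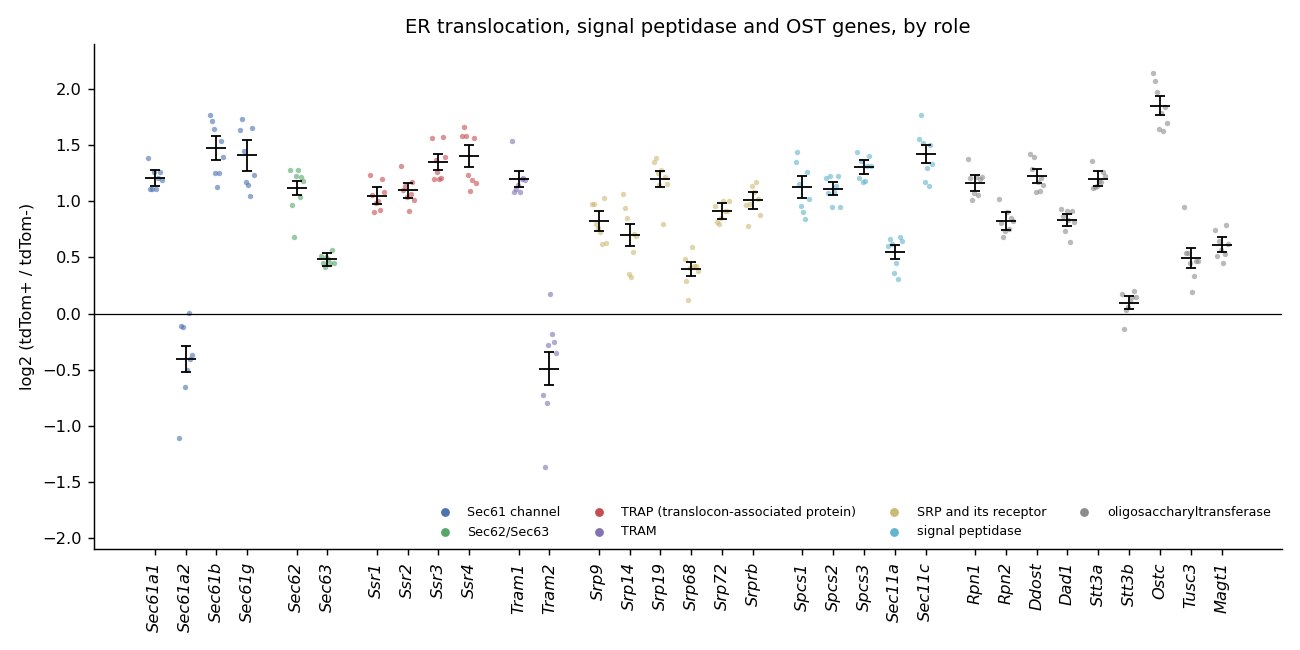
Log2 ratio of tdTom+ to tdTom- (vertical axis) for the 32 genes, grouped by role. Coloured points are the 8 mice and black bars the edgeR log2 fold change with its standard error. Ostc was highest at 1.85, while Sec61a2, Tram2 and Stt3b were the genes near or below 0.

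The Sec61 channel is a heterotrimer of a pore-forming alpha subunit with small beta and gamma subunits, and 3 of its 4 genes rose. Sec61a1 (ENSMUSG00000030082, chr6:88503601-88518905, minus strand, GRCm38) encodes the main alpha subunit and stood at 461 to 632 CPM in tdTom+ (median 581) against 213 to 265 CPM in tdTom- (median 248). The groups were far apart, and edgeR gave a log2 fold change of 1.21 ± 0.07 (SE; 2.31-fold; adjusted p = 1.16e-11, n = 8 per group). Sec61b, the beta subunit, was at 124 to 213 CPM (median 168) in tdTom+ and 49.9 to 69.8 CPM (median 59.3) in tdTom-. Its lowest tdTom+ library was well above its highest tdTom- library, a log2 fold change of 1.48 ± 0.11 (edgeR adjusted p = 1.36e-10). Sec61g, the gamma subunit, ranged more widely, with 64.8 to 144 CPM (median 99.6) in tdTom+ and 28.7 to 48.1 CPM (median 35.2) in tdTom-. Even so the groups did not meet, and the log2 fold change was 1.41 ± 0.14 (edgeR adjusted p = 1.68e-08).

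Sec61a2 encodes a second alpha subunit, expressed at a low level here, and it moved the other way. Its values (ENSMUSG00000025816, chr2:5870987-5895432, minus strand) were 9.83 to 17.0 CPM in tdTom+ (median 12.6) and 13.6 to 22.8 CPM in tdTom- (median 17.1). The groups overlapped, with tdTom+ lower in 7 of 8 mice, and the log2 fold change of -0.40 ± 0.12 passed the edgeR test (adjusted p = 0.0050). That call was not firm: without mouse 1, 4, 5, 7 or 8 the edgeR adjusted p lay between 0.0133 and 0.0297. The edgeR adjusted p was 0.104 in mice 1 to 3 alone and 0.0264 in mice 5 to 8 alone. A fit with mouse as a block gave 0.0017. The balance of the alpha subunits was tested directly. Such a ratio shifts whenever its genes change by different amounts, and 51.0% of all genes tested were called in either direction. For this and the other pairs below, how often pairs of other genes shift as much was not examined. The log2 ratio of Sec61a1 to Sec61a2 was 1.61 higher in tdTom+ than in tdTom- (SD 0.44 over 8 mice), higher in 8 of 8 mice, by an exact paired sign-change permutation test (two-sided p = 0.0078, the smallest that 8 mice allow; 0.0098 adjusted over 5 subunit pairs). Per kilobase of annotated exon, Sec61a1 was a median 32.4 times as abundant as Sec61a2 in tdTom+ and 10.7 times in tdTom-.

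Sec62 and Sec63 join the channel for chains that are slow to enter it, and Sec63 recruits the ER chaperone BiP. Both rose. Sec62 stood at 107 to 146 CPM in tdTom+ (median 132) and 56.0 to 66.7 CPM in tdTom- (median 59.2), clear of each other in every library, with a log2 fold change of 1.12 ± 0.06 (edgeR adjusted p = 1.89e-12). Sec63 was at 113 to 142 CPM (median 135) against 82.4 to 98.7 CPM (median 95.7). Its groups did not meet either, and the difference was 0.48 ± 0.06 on the log2 scale (edgeR adjusted p = 2.78e-07).

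The 4 TRAP subunits, which sit beside the channel and aid the entry of many signal sequences, all rose. Ssr4, the delta subunit, changed most, from 91.7 to 116 CPM in tdTom- (median 105) to 216 to 349 CPM in tdTom+ (median 272). No library of one group reached the other, and the log2 fold change was 1.40 ± 0.10 (edgeR adjusted p = 1.21e-10). Ssr1, the alpha subunit, changed least of the 4 and still about doubled its level, at 269 to 362 CPM (median 346) in tdTom+ and 129 to 180 CPM (median 157) in tdTom-. Its groups were separate as well (log2 fold change 1.05 ± 0.08, edgeR adjusted p = 2.35e-10). Ssr2 and Ssr3, the beta and gamma subunits, lay between them at log2 fold changes of 1.10 and 1.35.

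TRAM1 contacts signal sequences as they leave the channel for the lipid, and TRAM2 is its less studied relative. Tram1 (chr1:13564698-13589910, minus strand) was at 174 to 250 CPM in tdTom+ (median 213) and 81.9 to 100 CPM in tdTom- (median 92.8). The groups were separate, and the log2 fold change was 1.20 ± 0.07 (edgeR adjusted p = 5.40e-12). Tram2 (chr1:20996299-21079229, minus strand) had the lowest level of the 32 genes, also per kilobase, at 1.88 to 3.23 CPM in tdTom+ (median 2.72) and 2.48 to 5.59 CPM in tdTom- (median 3.42), from 29 to 174 counts a library. Its groups overlapped, with tdTom+ lower in 7 of 8 mice, and the log2 fold change of -0.49 ± 0.15 passed the edgeR test narrowly (adjusted p = 0.0072).

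The Tram2 call was lost in a fit that blocked on mouse (edgeR adjusted p = 0.0101), with no filter on low counts (adjusted p = 0.0141), and in each fit without mouse 1, 2, 3, 4, 7 or 8 (adjusted p from 0.0135 to 0.0362). In mice 5 to 8 alone it was -0.17 on the log2 scale (edgeR adjusted p = 0.402). The log2 ratio of Tram1 to Tram2 was 1.67 higher in tdTom+ (SD 0.51 over 8 mice), in 8 of 8 mice, by the exact paired permutation test (p = 0.0078; adjusted p = 0.0098). Its size differed between runs of mouse numbers, with a mean of 2.21 in mice 1 to 3, 1.43 in mouse 4 and 1.32 in mice 5 to 8; whether the runs differ was not tested.

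**Figure D2:**
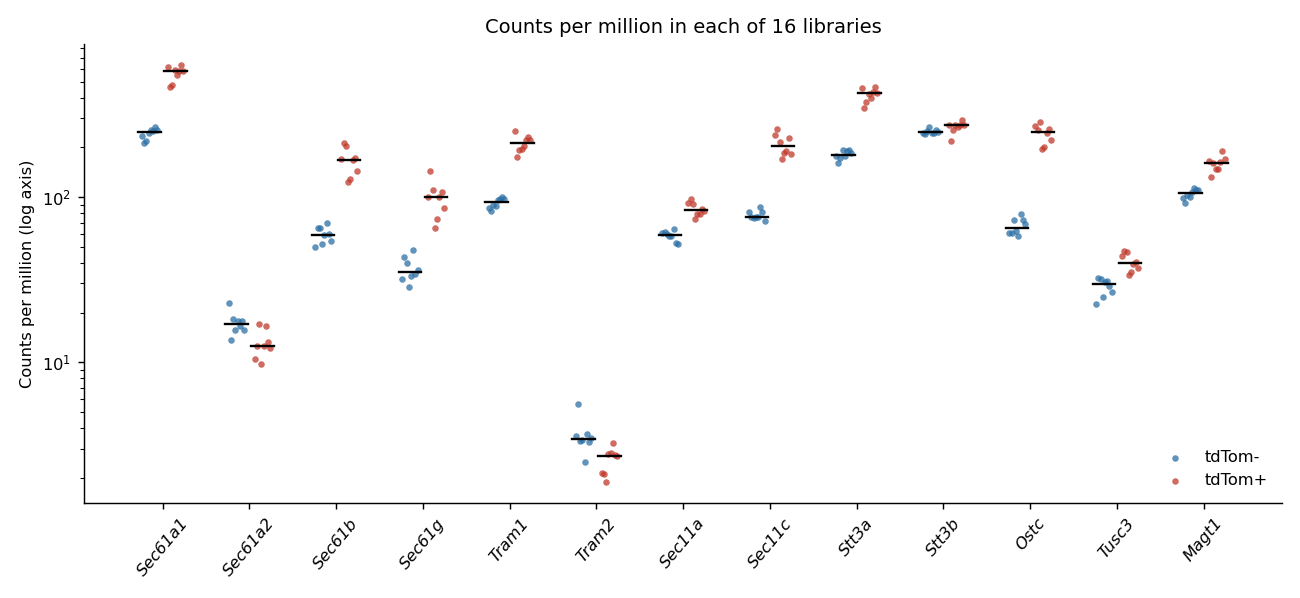
CPM on a log axis in each of the 16 libraries for the Sec61 channel genes, the members of each subunit pair and Ostc. Blue points are tdTom-, red points tdTom+ and black lines the group medians; Sec61a2, Tram2 and Stt3b are the genes shown whose groups overlap.

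SRP9 and SRP14 form the part of the particle that slows elongation, SRP19 binds the SRP RNA, SRP68 and SRP72 bind it as a pair, and the receptor's beta subunit (Srprb) anchors the receptor in the ER membrane. All 6 were called higher, with a median log2 fold change of 0.87 beside 1.31 for the 4 channel genes. Srp19 changed most, at 42.9 to 56.4 CPM in tdTom+ (median 48.2) and 19.1 to 24.8 CPM in tdTom- (median 20.2). There was no overlap between its groups (log2 fold change 1.20 ± 0.07, edgeR adjusted p = 5.49e-12). Srp68 changed least, at 73.8 to 101 CPM (median 89.7) against 60.3 to 75.2 CPM (median 67.1). Its lowest tdTom+ library fell inside the tdTom- range, while the difference was 0.40 ± 0.07 on the log2 scale and ran the same way in 8 of 8 mice (edgeR adjusted p = 2.41e-05); in mice 1 to 3 alone the adjusted p was 0.0477.

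Partners within the particle had unlike values. Srp72 had a log2 fold change of 0.91 ± 0.07 beside the 0.40 of Srp68, whereas Srp9 (0.82 ± 0.09) and Srp14 (0.70 ± 0.10) were closer together; the differences between partners were not tested. Srprb was at 1.01 ± 0.08, and 20.7% of its annotated exon bases were shared with another gene on the same strand, Gm20425, so that reads there may have been lost or split.

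Signal peptidase holds either SEC11A or SEC11C as its catalytic subunit, together with the accessory subunits SPCS1, SPCS2 and SPCS3. The accessory genes rose by log2 fold changes of 1.13 ± 0.10 (Spcs1), 1.11 ± 0.06 (Spcs2, for which a pseudogene is annotated) and 1.31 ± 0.06 (Spcs3). The catalytic genes rose unequally. Sec11c stood at 171 to 258 CPM in tdTom+ (median 203) and 72.1 to 87.2 CPM in tdTom- (median 75.7), with a wide gap between the groups and a log2 fold change of 1.42 ± 0.08 (edgeR adjusted p = 2.61e-12). Sec11a (chr7:80904889-80947780, minus strand) was at 74.1 to 97.0 CPM (median 83.3) and 52.2 to 63.9 CPM (median 58.7), also without overlap, but its log2 fold change was 0.55 ± 0.06 (edgeR adjusted p = 1.34e-07).

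The balance between the catalytic subunits therefore differed. The log2 ratio of Sec11a to Sec11c was 0.87 lower in tdTom+ (difference -0.868, SD 0.12 over 8 mice), lower in 8 of 8 mice (exact paired permutation test, p = 0.0078; adjusted p = 0.0098). Per kilobase of annotated exon, Sec11a was at a median 0.280 of the Sec11c level in tdTom+ and 0.506 in tdTom-. With the median length of coding transcripts in place of exon length, these ratios were 0.345 and 0.622.

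OST exists as complexes built on either STT3A, which glycosylates chains as they come through the channel, or STT3B, which acts on sites that were passed over. Among the shared subunits are ribophorin I (Rpn1), ribophorin II (Rpn2), OST48 (Ddost) and DAD1. All 4 of these genes were abundant and rose, Ddost most (log2 fold change 1.22 ± 0.06), then Rpn1 (1.17 ± 0.07), Dad1 (0.83 ± 0.06) and Rpn2 (0.82 ± 0.08). Ostc, the gene of the 32 that changed most, belongs with the STT3A complex, and Stt3b, the gene that did not pass the test, is the catalytic subunit of the other.

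Ostc (chr3:130695912-130709444, minus strand) stood at 195 to 283 CPM in tdTom+ (median 249) and 58.1 to 78.6 CPM in tdTom- (median 65.4). The lowest tdTom+ library was far above the highest tdTom- library, and the log2 fold change was 1.85 ± 0.09 (3.61-fold; edgeR adjusted p = 1.47e-13), above that of 96.8% of genes tested. Stt3a itself (ENSMUSG00000032116, chr9:36729344-36767679, minus strand) was at 348 to 464 CPM (median 426) against 160 to 194 CPM (median 181), again without overlap (log2 fold change 1.20 ± 0.07, edgeR adjusted p = 1.77e-12).

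Stt3b was the gene that did not pass the test. Its values (ENSMUSG00000032437, chr9:115242607-115310421, minus strand) were 219 to 295 CPM in tdTom+ (median 273) and 241 to 265 CPM in tdTom- (median 246), so that the tdTom- range lay within the tdTom+ range. The log2 fold change was 0.10 ± 0.06 (edgeR adjusted p = 0.1421, or 0.1015 when mice were blocked). Single mice ran from -0.13 to 0.20, with tdTom+ higher in 7 of 8. Tusc3 and Magt1 encode alternative oxidoreductase subunits of the STT3B complex, and both rose. Tusc3 (chr8:39005867-39165112, plus strand) was at 33.8 to 47.3 CPM (median 39.9) and 22.6 to 32.6 CPM (median 29.9), close but not overlapping (log2 fold change 0.50 ± 0.09, edgeR adjusted p = 5.01e-05). Magt1 (chrX:105968084-106011906, minus strand) was at 132 to 191 CPM (median 162) and 92.3 to 113 CPM (median 105), with a clear gap (0.61 ± 0.07, edgeR adjusted p = 9.79e-08).

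Among the 5 subunit pairs, the difference in the ratio of the catalytic OST genes had the smallest SD. The log2 ratio of Stt3a to Stt3b was 1.10 higher in tdTom+ (SD 0.07), from 1.02 to 1.25 in single mice (exact paired permutation test, p = 0.0078; adjusted p = 0.0098). It was 1.18 in mice 1 to 3, 1.08 in mouse 4 and 1.06 in mice 5 to 8. Which of the pair was the more abundant depended on the length used. Per kilobase of annotated exon the ratio was a median 0.736 in tdTom+ and 0.342 in tdTom-, whereas with the median length of coding transcripts it was 2.15 and 1.0, the annotated exons of Stt3a summing to 8948 bases and its coding transcripts having a median of 3076. The ratio of Tusc3 to Magt1 differed little, by -0.11 (SD 0.16) on the log2 scale, with overlapping groups (exact paired permutation test, p = 0.1016; adjusted p = 0.1016). It was lower in 6 of 8 mice, and without mouse 1 the adjusted p of the exact test was 0.0312 for a difference of -0.16.

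**Figure D3:**
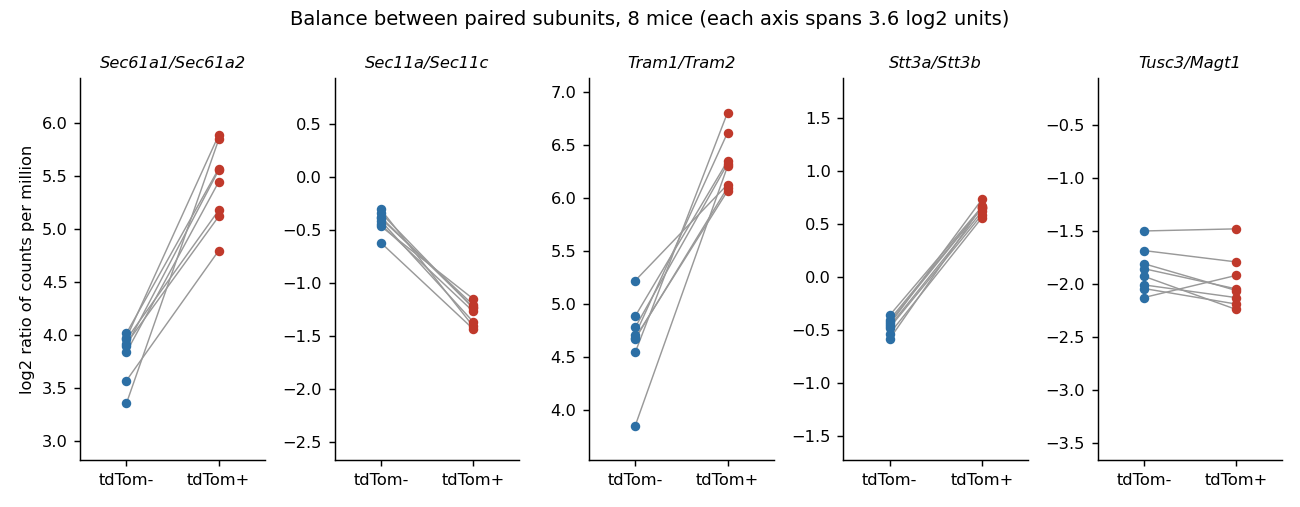
Log2 ratio of the CPM of paired subunits (vertical axes, each spanning the same width) in tdTom- and tdTom+ of 8 mice, with lines joining the libraries of a mouse. Sec61a1/Sec61a2, Tram1/Tram2 and Stt3a/Stt3b were higher and Sec11a/Sec11c lower in tdTom+ of every mouse, while the lines of Tusc3/Magt1 ran both ways.

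Genes of ER entry can carry elements bound by the transcription factors of the unfolded protein response, so the RefSeq promoter windows of the 32 genes (GRCm38.p6, 250 bases before to 50 after the start) were searched on both strands. Windows were given for 23 of the 32, with 2 for Rpn2. The ER stress response element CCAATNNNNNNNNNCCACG, its variant (ATTGG, any 1 base, then CCACG) and the element TGACGTGG were found in 0 of the 23, and in 0.119%, 0.0365% and 0.676% of all 32851 windows. A missing match says only that these letters are not in these windows. The words CCAAT and CCACG, searched afterwards because the full elements gave no match and contained within those elements, were in the windows of 12 and 15 of the 23, and in 37.4% and 32.8% of all windows. Both words together were in 9 of the 23 and in 11.7% of all windows. Of the 52 genes of the related lists that had windows, 21 held CCAAT and 32 held CCACG. The windows were not matched for base content or level, and differences in these shares were not tested. The upstream 250 bases of the OST pair that moved apart are shown here, with those words in capitals on either strand (ATTGG and CGTGG are their reverse complements), Stt3a at chr9:36767623-36767872 and Stt3b at chr9:115310469-115310718, both on the minus strand. Among 52 genes of the related lists below that had windows, Alg12, Calr and Canx held the full element. Calr and Canx, the lectin chaperones among them, are shown for comparison, at chr8:84846932-84847181 and chr11:50325674-50325923, both on the minus strand, with the outer words of the element in capitals.
Stt3a: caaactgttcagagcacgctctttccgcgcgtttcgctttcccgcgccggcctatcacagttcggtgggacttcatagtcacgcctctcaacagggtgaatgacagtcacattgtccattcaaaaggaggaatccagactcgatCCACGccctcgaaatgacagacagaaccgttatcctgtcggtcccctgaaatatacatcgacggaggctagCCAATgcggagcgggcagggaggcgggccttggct
Stt3b: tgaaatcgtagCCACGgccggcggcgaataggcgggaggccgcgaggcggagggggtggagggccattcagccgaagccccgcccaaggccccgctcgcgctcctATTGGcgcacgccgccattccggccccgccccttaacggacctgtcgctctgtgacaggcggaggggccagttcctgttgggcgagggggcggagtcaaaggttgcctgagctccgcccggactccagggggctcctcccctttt
Calr: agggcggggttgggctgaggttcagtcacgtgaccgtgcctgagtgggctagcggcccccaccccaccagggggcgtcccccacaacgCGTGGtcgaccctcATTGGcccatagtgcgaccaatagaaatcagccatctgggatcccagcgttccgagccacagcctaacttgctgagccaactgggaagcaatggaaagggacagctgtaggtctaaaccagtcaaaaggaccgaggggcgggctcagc
Canx: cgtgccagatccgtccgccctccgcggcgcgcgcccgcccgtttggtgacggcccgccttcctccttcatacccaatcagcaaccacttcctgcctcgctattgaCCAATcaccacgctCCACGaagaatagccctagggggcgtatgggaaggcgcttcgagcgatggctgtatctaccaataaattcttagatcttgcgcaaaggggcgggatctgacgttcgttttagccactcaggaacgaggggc
The upstream sequence of Stt3b was richer in G and C (70.4%) than that of Stt3a (56.0%), and each held both words, at different distances from the start.

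The neighbouring pathways were read from lists of other genes. Their counts stand beside 25.5% of all genes tested called higher and 25.5% called lower. Of 7 further genes of SRP, its receptor, OST and signal peptide peptidase, 7 were called higher, with a median log2 fold change of 0.92. Srpr, the alpha subunit of the SRP receptor, changed most (1.45 ± 0.06, edgeR adjusted p = 6.89e-14) and Srp54c, a copy of the signal-binding SRP subunit, least (0.72 ± 0.07, edgeR adjusted p = 6.83e-09). Reads of Srp54c can be shared with its near-identical copy Srp54a, so its value is uncertain. Krtcap2, another subunit of the STT3A complex, was at 90.6 to 122 CPM in tdTom+ (median 109) and 38.6 to 47.8 CPM in tdTom- (median 45.0), without overlap, with a log2 fold change of 1.31 ± 0.06 (edgeR adjusted p = 1.99e-13). Its window held the variant element as ATTGGaCCACG at chr3:89246490-89246500, plus strand, 18 bases after the start.

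Other routes into the membrane had medians nearer to 0, and whether their counts differ from the shares over all genes was not tested. In the ER membrane protein complex, an insertase for membrane proteins, 4 of 10 genes were called higher and 1 lower (Emc8), with a median log2 fold change of 0.14; Emc7 was highest (0.71 ± 0.07, edgeR adjusted p = 1.39e-08) and Emc9 lowest (-0.37 ± 0.13, edgeR adjusted p = 0.0184, not passing). In the pathway that inserts tail-anchored proteins, 3 of 7 were higher and 2 lower, with a median of 0.24. Asna1, its targeting ATPase, was at 0.68 ± 0.06 (edgeR adjusted p = 3.59e-09), and Sgta, a cochaperone that hands over its clients, was at -0.35 ± 0.05 (edgeR adjusted p = 6.39e-06). The multipass translocon, which works with Sec61 on proteins of many membrane spans, had 4 of 6 higher and 1 lower, with a median of 0.26. Its extremes were Tmco1 (0.63 ± 0.07, edgeR adjusted p = 4.66e-08) and Nomo1 (-0.31 ± 0.06, edgeR adjusted p = 3.15e-04).

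The steps before and after OST lay between. Synthesis of the lipid-linked oligosaccharide, the OST donor, had 16 of 23 genes higher and 1 lower, with a median log2 fold change of 0.47. Alg5, which makes the glucose donor, was highest (0.99 ± 0.06, edgeR adjusted p = 1.84e-11), close to Dpagt1, the first enzyme of the pathway (0.98 ± 0.06, edgeR adjusted p = 4.06e-12), and Dolpp1, which recycles the dolichol carrier, was the gene called lower (-0.35 ± 0.05, edgeR adjusted p = 2.82e-06). Glycan trimming and the calnexin cycle had 6 of 9 higher and 0 lower, with a median of 0.48. Pdia3, the disulphide isomerase of that cycle, was highest (1.41 ± 0.07, edgeR adjusted p = 8.79e-13), and Man1b1, a mannosidase, was at 0.01 ± 0.05 (edgeR adjusted p = 0.870). The lectin chaperones of this cycle, both with the full element in their windows, had unlike values, with Calr called higher at 1.09 ± 0.08 (edgeR adjusted p = 1.72e-10) and Canx at 0.16 ± 0.06, not passing (edgeR adjusted p = 0.0244). Alg12, a mannosyltransferase of the lipid-linked pathway and the third with that element, was called higher at 0.71 ± 0.07 (edgeR adjusted p = 2.88e-08). Differences between lists were not tested.

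**Figure D4:**
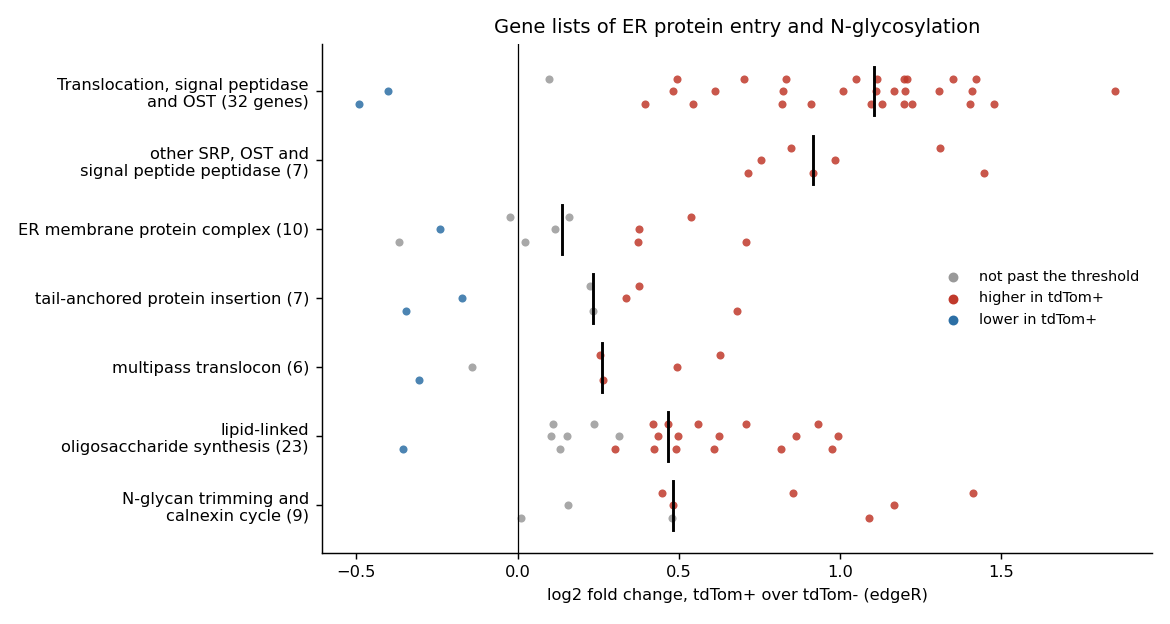
Log2 fold change of tdTom+ over tdTom- (horizontal axis) for the 32 genes and 6 related lists, with the number of genes tested in brackets and the list median as a black line. Red points passed the edgeR test as higher, blue as lower and grey did not pass; medians run from 0.14 in the ER membrane protein complex to 1.10 in the 32 genes.

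Other cell types moved with the same sort. Summed CPM of the 8 goblet markers was 49200 to 103000 in tdTom+ and 2230 to 8660 in tdTom-, and that of the 8 absorptive markers was 328 to 639 and 5730 to 11300. Of 8 enteroendocrine markers, 6 were lower in tdTom+ and 2 did not pass, with sums of 281 to 759 and 1320 to 3810 CPM. Of 7 tuft markers tested, 5 were lower, with sums of 51.0 to 108 and 92.9 to 162 CPM. Both groups were sorted as EpCAM-positive cells, and the summed level of the 10 plasma and immune markers was 2.73 to 4.66 CPM in tdTom+ and 7.89 to 21.5 CPM in tdTom-. The plasma cell genes Mzb1 and Tnfrsf17 had medians of 0 CPM in both groups, and Jchain medians of 0 in tdTom+ and 0.248 CPM in tdTom-. Mesenchymal and endothelial markers summed to 0.868 to 1.48 and 1.89 to 3.36 CPM. Of 7 proliferation genes, 0 were higher and 3 lower (6 lower with the mouse as a block). The part of the goblet and absorptive shifts in the values of the 32 genes was not tested. Within a mouse, the median log2 ratio of the goblet markers ran from 3.38 in mouse 5 to 4.76 in mouse 1. Mouse 1 was highest on both the goblet markers and the 32 genes. Mouse 7, next for the 32 genes (1.20), was at 3.66 for the goblet markers. Mouse 4, next for the goblet markers (4.64), was at 1.01 for the 32 genes. The median log2 ratio of the absorptive markers was lowest in mice 2 (-4.79), 1 (-4.72) and 7 (-4.625). These were also the mice with the highest values for the 32 genes (1.07, 1.26 and 1.20). Over the other mice the orders differed. For the absorptive markers and the 32 genes, mouse 8 was at -4.534 and 1.014, and mouse 3 at -4.41 and 0.992. Mouse 5 was at -4.26 and 1.042, mouse 6 at -4.222 and 0.982, and mouse 4 at -4.13 and 1.011. How these orders relate was not tested.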

How the data were processed

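RNA from sorted EpCAM+tdTom+ and EpCAM+tdTom- colon cells was sequenced by the authors as stranded mRNA libraries, read as 50-base single ends. The deposited values are raw counts per gene, not normalised, made per library with featureCounts on exons with reverse strandedness on GRCm38. The submitters' processing notes name TopHat2 2.1.1, Subread 1.5.2, DESeq2 1.14.1 and GRCm38.p3, while the file headers give featureCounts 1.5.0-p1. Gene symbols were found for 44585 of 45513 identifiers.

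Counts were filtered by edgeR's filterByExpr, scaled by TMM and tested with edgeR 4.0.16 (R 4.3.3) in 1 fit of all 16 libraries without a mouse term, at an adjusted p of 0.01. The study's methods compare the groups with DESeq2 at a p of 0.01 and state neither a mouse term nor an adjustment; edgeR and the adjustment were chosen here. The procedure was tested on simulated data without a mouse effect, which cannot show how the fit behaves with libraries paired by mouse. Log2 ratios of 5 subunit pairs used log2 CPM with a prior count of 2 and an exact paired permutation over 256 sign changes (scipy 1.17.1), read at an adjusted p of 0.05. Levels per kilobase used the exon length in the files, which counts all annotated exons, and, added after the data were seen, the median length of coding transcripts in GENCODE. The 32 genes, the related lists and the markers were chosen with earlier results of these data known. Text gives values for the Sec61 channel, both genes of each pair and the extremes of each role and list; Krtcap2, Dpagt1, Alg12, Calr, Canx and Emc8 were named after their values were seen.

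Libraries of a mouse are from the same animal, and their deviations from the group means correlated at 0.223 to 0.408, against at most 0.168 between different mice, so the mouse as a block was used as an alternative. Other alternatives were DESeq2 1.42.0, limma-voom (limma 3.58.1), other scalings, other count filters, fits lacking a single mouse, fits of mice 1 to 3 or of mice 5 to 8, and a threshold of 0.05. Libraries held 16482530 to 45791503 counts.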

Additional observations from a re-analysis of the deposited data

Results flagged for a closer look

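One library stood far from its group. The tdTom- library of mouse 4 held 45791503 counts, whereas the other 7 tdTom- libraries held 18318172 to 20668605. It was found by comparing the gap to the nearest library with the range of the group, in 76 groups of 8 values (total counts, the log2 CPM of the 32 genes and the ratios of the 5 pairs in each group), and chance alone marks about 1 in 20 such groups. None of the 32 genes and none of the 5 ratios was marked. Leaving out mouse 4 kept 29 genes higher, and Sec61a2 and Tram2 then did not pass.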

How the results depend on the processing

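The count of 29 genes higher was the same under 17 of 18 other fits and was 28 in mice 1 to 3 alone, where Srp68 did not pass. The count of 2 genes lower was less stable. It was 1 with the replicate block, 1 with no filter on counts, 1 in mice 1 to 3 alone and 0 in mice 5 to 8 alone, and it ran from 0 to 2 when single mice were left out. The mouse as a block changed the call of Tram2 and of no other of the 32 genes. Over all genes, mice 1 to 3 alone gave 2546 higher and 2559 lower. Of 608 values of single genes under the alternatives, 591 kept their direction and side of the threshold, 17 (all of Sec61a2 and Tram2 except that of Srp68) lost the threshold, and 0 reversed. The Tusc3 to Magt1 difference ran from -0.159 to -0.084 when single mice were left out, and passed its threshold without mouse 1. With 7 mice the smallest p of the exact test was 0.0156. Depth limits Tram2 most, at 29 to 174 counts a library. Reads of near-identical copies and length estimates limit comparisons of level between genes. The causes of these changes were not tested.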
